A study of Mus musculus with 3 samples.

Results

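The CCN genes encode secreted, cysteine-rich proteins of the extracellular matrix, and 5 of them are described here, *Ctgf*, *Cyr61*, *Nov*, *Wisp1* and *Wisp2*. They were taken by their older symbols from a table of 15554 genes, and each symbol occupied 1 row. The current symbols are *Ccn2*, *Ccn1*, *Ccn3*, *Ccn4* and *Ccn5* in the same order. CCN proteins are built from modules, an insulin-like growth factor binding protein (IGFBP) module, a von Willebrand factor type C module, a thrombospondin type 1 module and a C-terminal cysteine knot. They bind integrins and coreceptors on the cell surface and act on adhesion, migration and matrix production. CTGF (connective tissue growth factor) is a well-known target gene product of TGF-β in fibroblasts.

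The cells were NIH3T3, a standard fibroblast line derived from mouse embryos, grown in IMDM with serum. All cultures were kept in serum-free IMDM before and during the experiment, and the 3 groups received no stimulation (CTRL), 100 ng/mL of GDF15 protein or 4 ng/mL of TGF-β, each for 24 h. The question was whether GDF15, a member of the TGF-β superfamily, acts on fibroblasts as TGF-β does. RNA was pooled within each treatment, which left 1 library per group, so differences could not be set against the spread between cultures and no p-value is given. In such bulk RNA, more cells that express a gene and more RNA per cell cannot be told apart.

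The values are FPKM, which count sequenced fragments relative to the length of the gene's exons and to the depth of the library. Low values lie on a ladder whose step is 1 fragment, and this step gave an estimated 18650000, 21750000 and 17800000 fragments for CTRL, GDF15 and TGF-β. From the depth, the number of fragments behind each CCN value was estimated, with an exact 95% Poisson interval that covers counting error only. All 10 fibroblast markers examined (*Col1a1*, *Col1a2*, *Col3a1*, *Vim*, *Thy1*, *Pdgfra*, *Pdgfrb*, *S100a4*, *Fn1* and *Sparc*) had an FPKM of at least 34.7 in each library. The 6 epithelial markers summed to between 0.268 and 0.735, with *Epcam*, *Cldn4* and *Krt19* at 0 in all libraries. *Krt14*, a keratin of basal epithelial cells that is not among these 6 markers, was at 24.0 in CTRL, 48.2 with GDF15 and 136 with TGF-β, and its part in the values of *Wisp2*, which it resembles in pattern, was not tested. The summed FPKM was between 0.252 and 0.329 for 4 endothelial markers, between 1.34 and 1.86 for 4 immune markers (mostly *Cd68*), between 0 and 0.508 for 4 adipocyte markers and between 0.212 and 0.23 for 3 skeletal muscle markers.

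The members are shown first by a stretch of their coding sequence. In the IGFBP module, which other proteins also have, CCN proteins carry the pattern glycine, cysteine, any residue, cysteine, cysteine, any 2 residues, cysteine. It was searched for in the coding transcripts of GENCODE M21 (GRCm38), and each of the 5 genes had 1 match. The 24 bases are given 5′ to 3′, with the cysteine codons in capitals, to show the codons each gene uses. The spacing of the cysteines is that of the pattern searched for.
Ctgf: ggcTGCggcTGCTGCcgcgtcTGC
Cyr61: ggcTGCggcTGCTGTaaggtcTGC
Nov: ggcTGCtccTGCTGTccggtgTGC
Wisp1: ggcTGTgaaTGCTGTaagataTGT
Wisp2: ggcTGTggcTGCTGTcgagtgTGT
The first codon was ggc in all 5 genes. The third codon was that of glycine in *Ctgf*, *Cyr61* and *Wisp2* and another codon in *Nov* and *Wisp1*.

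The genes lie on 4 chromosomes of GRCm38. *Ctgf* is at chr10:24595442-24598683 on the plus strand, *Cyr61* at chr3:145646976-145649981 on the minus strand, *Nov* at chr15:54745702-54754039 (plus), *Wisp1* at chr15:66891320-66923201 (plus) and *Wisp2* at chr2:163820861-163833146 (plus). In the longest coding transcript, *Ctgf*, *Cyr61*, *Nov* and *Wisp1* have 5 coding exons and between 348 and 379 codons. *Wisp2* has 4 coding exons and 251 codons, since it lacks the last coding exon of the others, which encodes the C-terminal knot. The numbers of cysteine codons were 39 in *Ctgf*, 38 in *Cyr61*, 40 in *Nov*, 38 in *Wisp1* and 29 in *Wisp2*. Transcript lengths ran from 1719 bases (*Wisp2*) to 5097 bases (*Wisp1*), whose last exon alone takes 4047 bases.

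**Figure D1:**
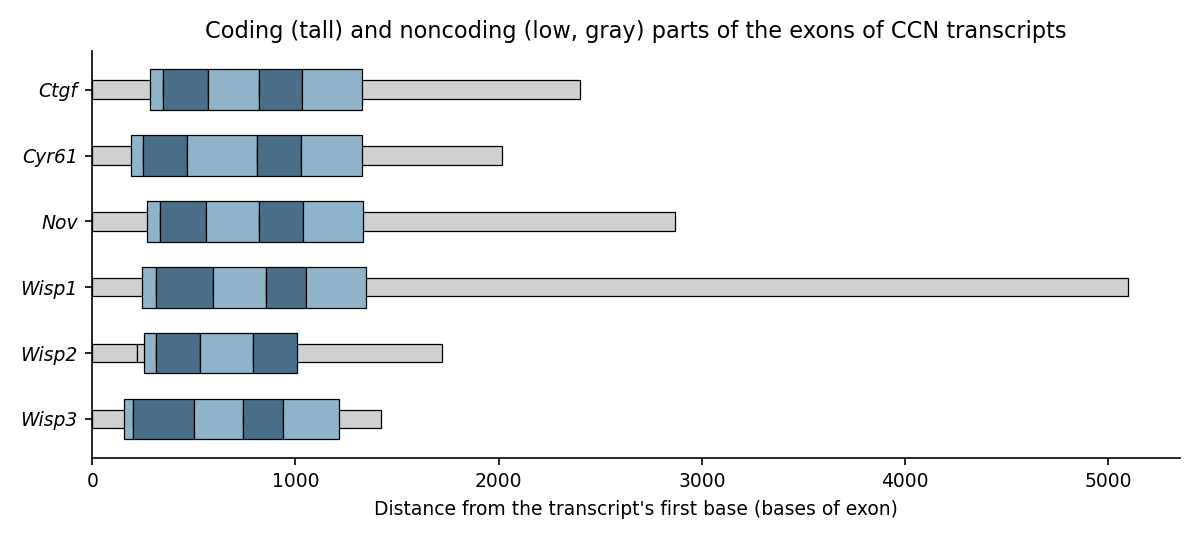
Exon structure of the longest coding transcript of each CCN gene in GENCODE M21, drawn to scale from the first base of the transcript (x axis, bases of exon); tall boxes in alternating blues are the coding parts of successive exons and low gray boxes are noncoding. The coding parts of *Ctgf*, *Cyr61*, *Nov*, *Wisp1* and *Wisp3* fall into 5 boxes and those of *Wisp2* into 4, and *Wisp1* has the longest noncoding tail.

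The coding sequences are far enough apart for reads to be told apart. Between pairs of the 5 genes, from 58.5% (*Nov* and *Wisp1*) to 66.3% (*Ctgf* and *Nov*) of the aligned coding bases were identical. Reads were 50 bases long, and no window of 50 bases was common to the transcripts of any of the 5 genes. *Cyr61*, *Wisp1* and *Wisp2* shared 0 such windows with any other gene of GENCODE M21. *Nov* shared 32 of its 2820 windows with other genes. *Ctgf* shared 446 of 2349 windows with *Gm15270*, a transcript on the opposite strand that overlaps it at chr10:24595442-24597108. The libraries were stranded, but whether the strand was used in counting is not given in the sources used here, and the part of *Gm15270* in the *Ctgf* values was not tested.

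*Ctgf* encodes the matrix growth factor CTGF, which promotes matrix production by fibroblasts. Its FPKM was 9.03 in CTRL, 41.3 with GDF15 and 77.3 with TGF-β. The estimated numbers of fragments behind these values were 370, 1975 and 3023. GDF15 stood well above CTRL and TGF-β above both, and no counting intervals overlapped (8.13 to 9.99, 39.5 to 43.2, and 74.5 to 80.1 FPKM). The ratio to CTRL was 4.57 for GDF15 (95% counting interval 4.09 to 5.13) and 8.55 for TGF-β (7.68 to 9.56). On the log2(FPKM + 1) scale, these are changes of 2.08 and 2.96. By size of the increase, *Ctgf* had rank 2 of 15554 genes in either comparison.

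*Wisp1* (Wnt1-inducible signaling pathway protein 1) is a matrix-associated growth factor of mesenchymal cells and was first described as a target of Wnt signaling. Its FPKM was 1.496 in CTRL, 7.79 with GDF15 and 16.2 with TGF-β, with an estimated 137, 829 and 1413 fragments. The order of the libraries was that of *Ctgf*, from a much lower level in CTRL. The ratio to CTRL was 5.20 for GDF15 (4.33 to 6.26) and 10.8 for TGF-β (9.06 to 13.0), the largest ratios among the 5 genes. These intervals overlap those of *Ctgf* (4.09 to 5.13 and 7.68 to 9.56). The changes of *Wisp1* on the log2(FPKM + 1) scale were 1.82 and 2.79, rank 7 and rank 3 of all genes. On that scale the changes of *Ctgf* were larger (2.08 and 2.96). The added 1 shrinks changes at low FPKM, and without the pseudocount the changes of *Wisp1* were 2.38 and 3.44.

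*Wisp2* is the member without the C-terminal knot, and its product is known to restrain growth in several cell types. Its FPKM was 14.5 in CTRL, 35.5 with GDF15 and 80.1 with TGF-β, with an estimated 410, 1172 and 2166 fragments. It was thus higher in both stimulated libraries, with no overlap of the counting intervals (13.1 to 15.9, 33.5 to 37.6, and 76.8 to 83.6 FPKM). The ratio to CTRL was 2.45 for GDF15 (2.19 to 2.75) and 5.53 for TGF-β (4.98 to 6.17). The changes were 1.24 and 2.39, rank 20 and rank 10 of all genes.

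*Cyr61* encodes an adhesion molecule for integrins and is known as an immediate early gene of growth factor stimulation. Its FPKM was 3.37 in CTRL, 7.005 with GDF15 and 10.7 with TGF-β, with an estimated 114, 277 and 346 fragments. The libraries stood in the same order as for the preceding genes, with smaller steps and no overlap of the counting intervals (2.77 to 4.04, 6.20 to 7.88, and 9.59 to 11.9 FPKM). The ratio to CTRL was 2.08 for GDF15 (1.67 to 2.61) and 3.17 for TGF-β (2.57 to 3.97). On the log2(FPKM + 1) scale the change by GDF15 was 0.87, short of 2-fold, and that by TGF-β was 1.42. The call of *Cyr61* with GDF15 therefore depended on the pseudocount, and the counting interval of its ratio includes 2.

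*Nov* (nephroblastoma overexpressed) encodes CCN3, which counteracts CTGF in several fibrosis models. Its FPKM was 2.20 in CTRL, 0.890 with GDF15 and 0.363 with TGF-β, with an estimated 109, 52 and 17 fragments. It stood alone among the 5 genes in being lower in both stimulated libraries, and again no counting intervals overlapped (1.80 to 2.64, 0.669 to 1.17, and 0.208 to 0.573 FPKM). CTRL was 2.47-fold above GDF15 (1.74 to 3.47) and 6.06-fold above TGF-β (3.65 to 10.9). The changes were -0.76 and -1.23 on the log2(FPKM + 1) scale and -1.305 and -2.60 without the pseudocount. Among all genes, *Nov* had rank 43 and rank 23 from the lowest change.

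**Figure D2:**
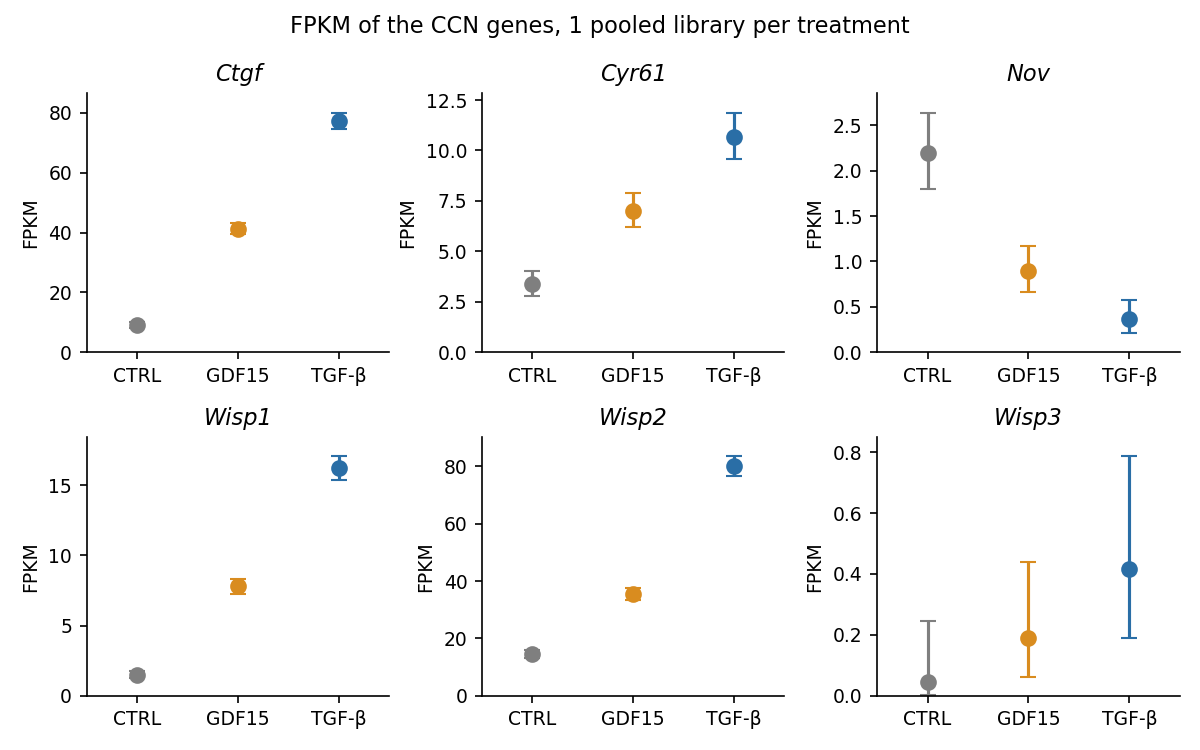
FPKM (y axis, linear from 0, scaled per gene) of the 5 CCN genes and *Wisp3* in CTRL, GDF15 and TGF-β (x axis); each point is 1 pooled library and the bars are 95% counting intervals, not replicate error. *Ctgf*, *Cyr61*, *Wisp1* and *Wisp2* step upward from CTRL to GDF15 to TGF-β, *Nov* steps downward from 2.20 to 0.363, and the intervals of *Wisp3* overlap.

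*Wisp3* (*Ccn6*), a further CCN gene outside the 5, is also listed in the table, and its values are given although it was singled out after they were seen. Its FPKM was 0.0440 in CTRL, 0.189 with GDF15 and 0.415 with TGF-β. These values correspond to 1, 5 and 9 fragments. The ratio of TGF-β to CTRL was 9.44, with a counting interval of 1.31 to 413, and that of GDF15 to CTRL was 4.29 (0.480 to 203). The direction of *Wisp3* with GDF15 was therefore not detectable at this depth. Of its 1370 windows of 50 bases, 435 are shared with *Tube1* on the opposite strand.

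Over 2-fold, the criterion of the study, was taken as an absolute change above 1 on the log2(FPKM + 1) scale. With GDF15, 3 of the 5 CCN genes were over 2-fold higher (*Ctgf*, *Wisp1* and *Wisp2*) and 0 were over 2-fold lower. Among all genes, 0.212% were over 2-fold higher and 0.0772% lower, or 0.289% in all. With TGF-β, 4 of the 5 were over 2-fold higher and *Nov* was over 2-fold lower, where the shares of all genes were 0.579% and 0.334%, or 0.913% in all. By the plain ratio of FPKM, 4 of the 5 were over 2-fold higher with GDF15 and *Nov* was over 2-fold lower, against 0.575% and 0.325% (together 0.9%) of 9225 genes above 0 in every library that averaged at least 1 FPKM. By this ratio with TGF-β, 4 were higher and 1 lower, against 1.27% and 1.04% (together 2.31%). The median change of the 5 genes was 1.24 with GDF15 and 2.39 with TGF-β, while the median over the 9226 genes that averaged at least 1 FPKM was -0.03 and -0.07.

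**Figure D3:**
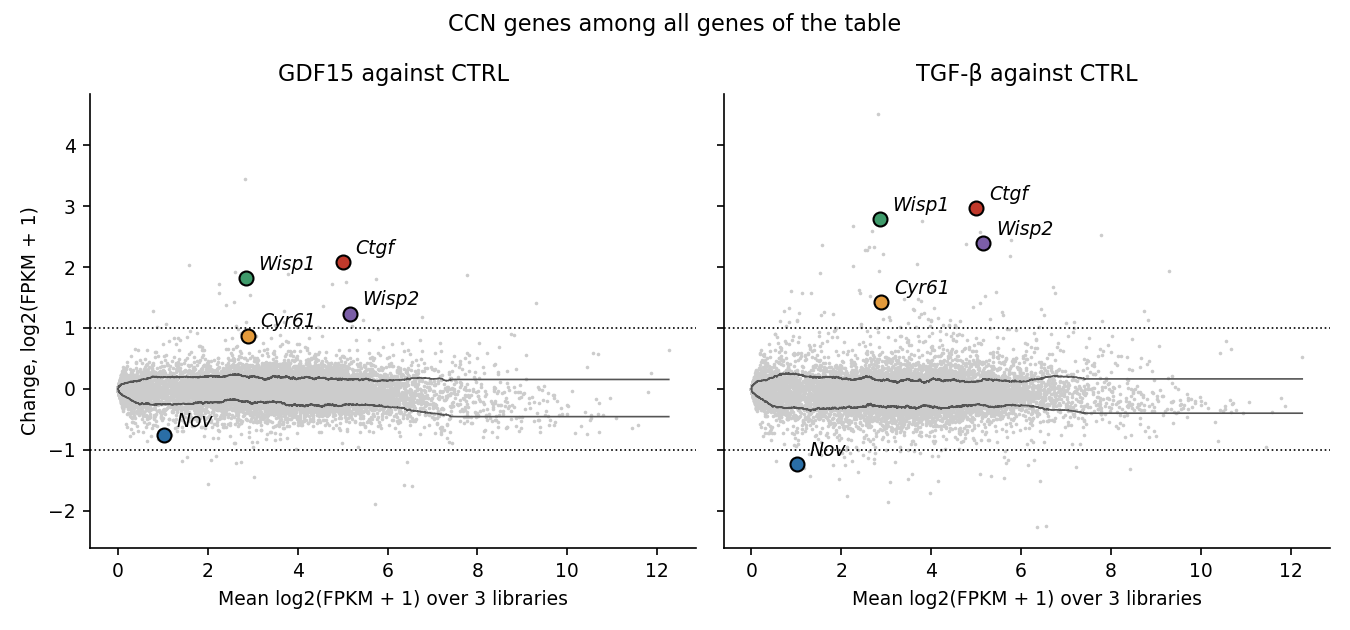
Change on the log2(FPKM + 1) scale (y axis) against mean log2(FPKM + 1) over the 3 libraries (x axis) for all 15554 genes (gray), with GDF15 against CTRL on the left and TGF-β against CTRL on the right; the gray lines are the local median plus and minus the local spread and the dotted lines mark 2-fold. The 5 named CCN genes lie outside the lines in both panels, *Nov* below them and the others above.

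Each change was also set against the local spread, a robust SD (scaled median absolute deviation) among the genes closest to it in mean expression. This spread was between 0.19 and 0.28 for the CCN genes in the comparisons with CTRL. Less the local median, the changes with GDF15 were 9.80 local spreads for *Ctgf*, 8.86 for *Wisp1*, 6.20 for *Wisp2*, 4.37 for *Cyr61* and -3.34 for *Nov*. With TGF-β they were 15.8, 13.3, 11.2, 7.05 and -4.35 in the same order. *Nov* and *Cyr61* were thus the members nearest to the bulk of genes of similar expression. The spread is one among genes of single libraries and does not stand in for repeated cultures.

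Both stimuli were also compared with each other, without CTRL. The change from GDF15 to TGF-β was 1.15 for *Wisp2*, 0.97 for *Wisp1*, 0.89 for *Ctgf*, 0.55 for *Cyr61* and -0.47 for *Nov*. *Wisp2* alone was over 2-fold on this scale, where 0.0836% of all genes were over 2-fold higher in TGF-β and 0.0193% lower, together 0.103%. It was 2.26-fold higher in TGF-β than in GDF15 (counting interval 2.10 to 2.43), and *Wisp1* was 2.08-fold higher (1.91 to 2.27). *Ctgf* was 1.87-fold higher (1.77 to 1.98) and *Cyr61* 1.52-fold (1.299 to 1.79). *Nov* was 2.45-fold higher in GDF15 than in TGF-β (1.42 to 4.62). By the ratio, *Wisp1*, *Wisp2* and *Nov* passed 2-fold, against 0.217% of the genes higher in TGF-β and 0.195% lower, together 0.412%. The doses of the stimuli differed (100 and 4 ng/mL), and 1 dose of each was sequenced.

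The order of the members by FPKM differed between the libraries. In CTRL it was *Wisp2*, *Ctgf*, *Cyr61*, *Nov* and *Wisp1*, and neighbours in this order did not overlap in their counting intervals. In GDF15 it was *Ctgf*, *Wisp2*, *Wisp1*, *Cyr61* and *Nov*, and the intervals of *Wisp1* (7.26 to 8.33) and *Cyr61* (6.20 to 7.88) overlapped. In TGF-β it was *Wisp2*, *Ctgf*, *Wisp1*, *Cyr61* and *Nov*, and the intervals of *Wisp2* (76.8 to 83.6) and *Ctgf* (74.5 to 80.1) overlapped. *Wisp1* thus stood last in CTRL and in the middle of the family in both stimulated libraries. In TGF-β, the FPKM of *Wisp2* and *Ctgf* exceeded those of 96.2% and 96.0% of all genes.

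The summed FPKM of the 5 genes was 30.6 in CTRL, 92.5 with GDF15 and 185 with TGF-β, which is 3.02 and 6.04 times CTRL. *Wisp2* and *Ctgf* made up most of it in every library. The share of *Ctgf* was 29.6% in CTRL, 44.7% with GDF15 and 41.8% with TGF-β, and that of *Wisp2* was 47.4%, 38.4% and 43.4%. The share of *Wisp1* was 4.89%, 8.42% and 8.78%, whereas that of *Cyr61* was 11.01%, 7.58% and 5.79%. *Nov* held 7.19% of the sum in CTRL, 0.963% with GDF15 and 0.196% with TGF-β.

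**Figure D4:**
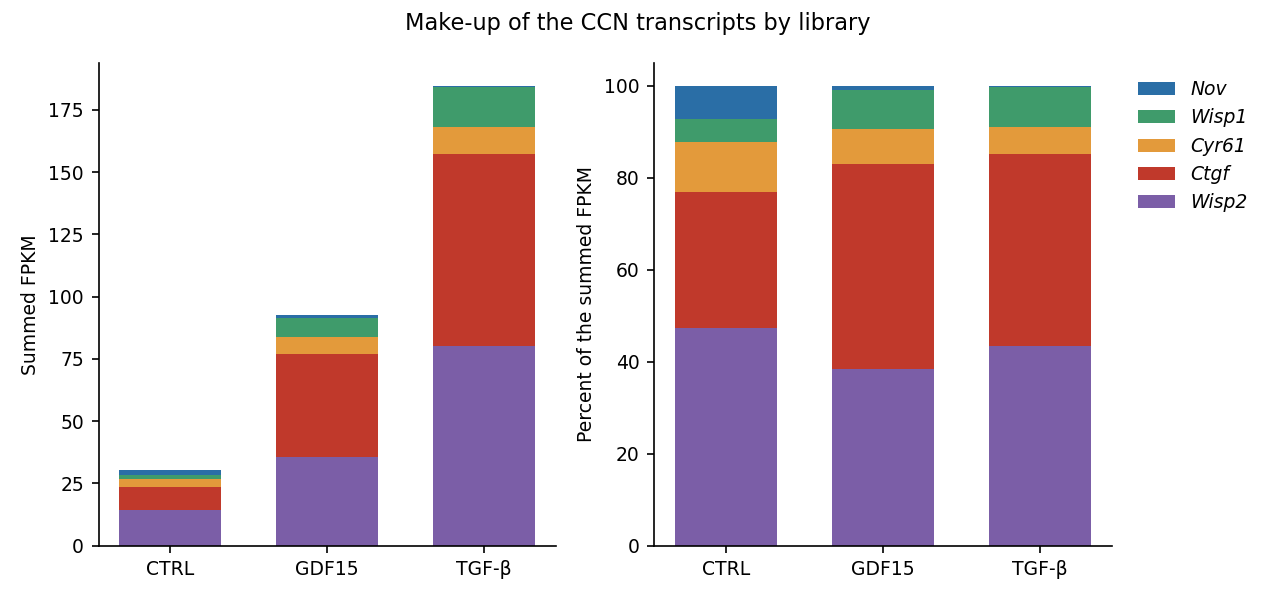
Summed FPKM of the 5 CCN genes (left) and the percent of that sum held by each gene (right) in CTRL, GDF15 and TGF-β, 1 pooled library each. The sum grows from 30.6 to 92.5 and 185, *Wisp2* and *Ctgf* fill most of each bar, and the blue part of *Nov* shrinks from 7.19% to 0.196%.

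The genes nearest to each member in pattern were sought by the Euclidean distance between the pairs of changes with GDF15 and TGF-β, among 9221 other genes that averaged at least 1 FPKM. The distance rests on 3 libraries, and both changes share CTRL. Nearest to *Ctgf* were *Col11a1* (a collagen chain, distance 0.27), *Postn* (the matricellular protein periostin, 0.45) and *Lox* (lysyl oxidase, which cross-links collagen, 0.49). Nearest to *Wisp1* were *Col11a1* (0.08), *Postn* (0.14) and *Ccdc80* (0.22). For both, these are genes of matrix proteins or matrix enzymes. Nearest to *Wisp2* were *Pmepa1* (0.23), *Krt14* (the basal epithelial keratin, 0.27) and *Eln* (elastin, 0.32). Nearest to *Cyr61* were *Fam101b* (0.07), *Aldh1l2* (0.11) and *Gadd45g* (0.11). *Nov* was nearest to *Xdh* (xanthine dehydrogenase, 0.06), *Prl2c2* (proliferin, 0.07) and *Adra1b* (an adrenergic receptor, 0.07). *Xdh* was at 78.4, 47.9 and 33.3 in CTRL, GDF15 and TGF-β, a level far above that of *Nov*. The added 1 shrinks changes at low FPKM, so these matches are of changes on the log2(FPKM + 1) scale and not of fold changes. Without it, *Nov* changed by -1.305 and -2.60 with GDF15 and TGF-β. *Pmepa1* then changed by 1.93 and 2.88, beside 1.29 and 2.47 for *Wisp2*.

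Integrins and coreceptors that bind CCN proteins were followed as a list of 15 genes, of which 13 averaged at least 1 FPKM. *Itgb5*, the integrin β5 chain that pairs with the αv chain, was the one gene over 2-fold on the log2(FPKM + 1) scale with GDF15 and with TGF-β, at 56.3 FPKM in CTRL, 129 with GDF15 and 169 with TGF-β. Its αv partner *Itgav* was at 44.1, 71.3 and 62.7, and *Itgb3*, another partner of αv, at 23.4, 34.3 and 36.6. Neither *Itgav* nor *Itgb3* passed 2-fold. On this scale, 0.289% of all genes were over 2-fold with GDF15 and 0.913% with TGF-β. *Itgb1*, the most abundant integrin chain of the list, was higher in both stimulated libraries (140, 202 and 194). *Itga5* (77.1, 73.2 and 85.2) and *Itga6* (44.0, 47.0 and 43.2) differed in direction between the stimuli. The chains *Itga2b* (4.41, 2.76 and 2.55) and *Itgb2* (3.68, 2.45 and 1.80) were lower in both stimulated libraries. On the log2(FPKM + 1) scale neither passed 2-fold, but without the pseudocount *Itgb2* was over 2-fold lower with TGF-β (-1.03). Of the 13 genes, 8 were higher and 5 lower with GDF15, and 7 were higher and 6 lower with TGF-β, where 55.6% and 62.8% of the 9226 genes at this level were lower. *Lrp1*, an endocytic receptor that takes up CTGF, had the highest mean FPKM of the list (158, 219 and 213). *Notch1*, which binds the *Nov* product, was at 7.05, 6.33 and 5.58. The median change of the 13 genes was 0.16 with GDF15 and 0.14 with TGF-β.

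*Ctgf* and *Cyr61* are classic targets of the cofactor YAP with TEAD factors, and 21 other such targets were examined, 18 of them averaging at least 1 FPKM. With GDF15, *Ccdc80* alone was over 2-fold (FPKM 11.5 in CTRL, 40.9 with GDF15 and 73.3 with TGF-β). With TGF-β, *Ccdc80* and the kinase gene *Nuak2* (4.08, 6.62 and 10.2) were over 2-fold. Of all genes, 0.289% were over 2-fold with GDF15 and 0.913% with TGF-β. *Ankrd1* (4.27, 5.75 and 6.28) and *Amotl2* (50.6, 73.4 and 72.7), both widely used as readouts of YAP, were below 2-fold, as was *Axl*, the most abundant of the list (134, 157 and 148). The median change of the 18 genes was 0.21 with GDF15 and 0.07 with TGF-β, beside -0.03 and -0.07 over all genes at this level. With GDF15, 15 of the 18 were higher and 3 lower, and with TGF-β 10 were higher and 8 lower. Of all genes at this level, 55.6% were lower with GDF15 and 62.8% with TGF-β.

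The promoter of *Cyr61* is the one promoter of the 5 genes in the RefSeq sequences used here (GRCm38.p6). The 250 bases before its start site (chr3:145649986-145650235, minus strand) are shown 5′ to 3′ because the gene is a TEAD target, with the TEAD element and the TATA box in capitals.
Cyr61: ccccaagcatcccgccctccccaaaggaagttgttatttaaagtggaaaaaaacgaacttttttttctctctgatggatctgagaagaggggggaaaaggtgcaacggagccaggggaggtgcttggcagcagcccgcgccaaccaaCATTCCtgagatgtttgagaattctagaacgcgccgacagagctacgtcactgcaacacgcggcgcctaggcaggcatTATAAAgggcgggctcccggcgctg
Both strands were searched for GGAATG (TEAD), CAGAC (SMAD), TGANTCA (AP-1), the CArG box of SRF and TATAAA, which do not overlap here. The TEAD element occurs 1 time, on the minus strand from 103 to 98 bases before the start, and is found in 12.6% of 32851 promoter windows of this length. The TATA box occurs 1 time, from 25 to 20 bases before the start (12.4% of windows). The letters of the SMAD element (42.2% of windows), the AP-1 element (6.75%) and the CArG box (1.47%) are not in this window. A match of letters is a description and not a site in use.

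Targets of Smad signaling from TGF-β were examined as 15 genes, 14 of them averaging at least 1 FPKM. *Pmepa1* (1.53, 5.83 and 11.2 FPKM in CTRL, GDF15 and TGF-β), *Skil* (2.45, 6.07 and 8.86) and *Ltbp2* (19.4, 40.7 and 57.8) were over 2-fold with both stimuli, and 0 were over 2-fold lower. Among all genes, 0.289% were over 2-fold with GDF15 and 0.913% with TGF-β. With GDF15, the changes of *Skil* (1.04) and *Ltbp2* (1.03) were just past 2-fold and were 0.92 and 0.92 once the trend of change with transcript length was removed, while *Pmepa1* stayed past it at 1.39. *Pmepa1* and *Skil* encode feedback inhibitors of Smad signaling, and *Ltbp2* encodes a matrix protein of the latent TGF-β binding family. *Smad7*, another feedback inhibitor, was at 2.58, 3.28 and 4.36, below 2-fold. *Fn1* was the most abundant (3738, 5815 and 5385). The median change of the 14 genes was 0.30 with GDF15 and 0.55 with TGF-β, the highest median with TGF-β among the 7 lists. Of the 14 genes, 11 were higher and 3 lower with each stimulus.

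Of 12 listed targets of SRF and its cofactor MRTF, 11 were analysed and 8 averaged at least 1 FPKM. *Acta2* (20.4, 73.6 and 96.1) and *Tagln* (2.20, 8.27 and 13.8) were over 2-fold with both stimuli. Both encode contractile proteins of smooth muscle and myofibroblasts. The shares of all genes over 2-fold were 0.289% with GDF15 and 0.913% with TGF-β. The most abundant of the list, *Myh9*, was at 185, 220.0 and 228, and the median change of the 8 genes was 0.28 with GDF15 and 0.30 with TGF-β. With each stimulus, 7 of the 8 genes were higher and 1 lower. *Cald1*, a further member of this list, was not analysed here. Averaging under 1 FPKM were *Actg2* (0.0961, 0.330 and 1.06), *Cnn1* (0.150, 0.0770 and 0.0628) and *Lmod1* (0.0428, 0.0245 and 0.0749).

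The Wnt and β-catenin list bears on the name of *Wisp1* and *Wisp2*. Of its 11 genes, 3 averaged at least 1 FPKM, and 0 of the 11 were over 2-fold with either stimulus on the log2(FPKM + 1) scale, where the shares of all genes were 0.289% and 0.913%, so that a count of 0 does not set the list apart. Without the pseudocount, 3 passed 2-fold with GDF15 (*Axin2*, *Tcf7* and *Lgr5*, each averaging under 0.5 FPKM) and 4 with TGF-β (*Axin2*, *Tcf7*, *Lef1* and, lower, *Rnf43*). Without the pseudocount, 27.3% of the 1856 genes above 0 in every library that averaged under 1 FPKM also passed 2-fold with GDF15. The share with TGF-β was 31.0%, so nothing is read from the calls of genes under 1 FPKM. *Lef1* averaged 1.17 FPKM and changed by 1.14 with TGF-β without the pseudocount. Of genes above 0 in every library that averaged at least 1 FPKM, 2.31% passed 2-fold by this measure. The most abundant was *Apcdd1* (7.73, 8.19 and 6.56). *Lef1* had an FPKM of 0.711, 1.24 and 1.57. The other 8 genes of the list averaged under 1 FPKM.

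The immediate early genes bear on *Cyr61*. Of 15 such genes that averaged at least 1 FPKM, 0 were over 2-fold with either stimulus, near the all-gene shares of 0.289% and 0.913%, and 13 were lower in GDF15 than in CTRL and 10 lower in TGF-β. The shares of all genes at this level that were lower were the 55.6% and 62.8% given for the receptors. The median change was -0.21 with GDF15 and -0.19 with TGF-β. Medians and directions of all lists were taken without removing the trend of change with transcript length, and its part in them was not tested. *Jun*, the most abundant, was at 94.4, 81.4 and 71.6.

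The last list holds 13 genes whose proteins share a module with the CCN proteins, such as the IGFBP genes and thrombospondins. Of these, 7 averaged at least 1 FPKM and their median change was 0.17 with GDF15 and 0.15 with TGF-β. *Igfbp7* was over 2-fold with TGF-β (18.9, 27.3 and 49.4), and 0 genes were with GDF15. The shares of all genes were 0.913% and 0.289%, so that the count of 0 does not set the list apart. *Igfbp6*, the most abundant, was at 375, 264 and 256, lower in both stimulated libraries.

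**Figure D5:**
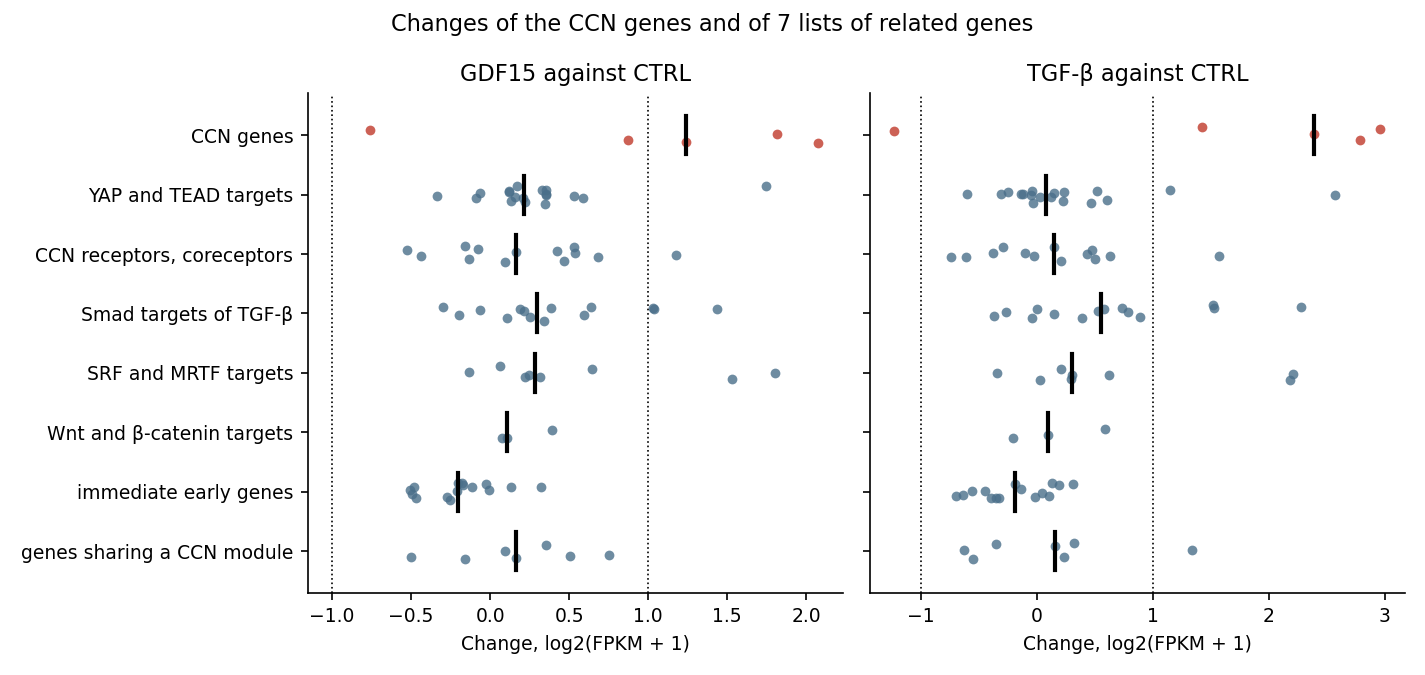
Change on the log2(FPKM + 1) scale (x axis) of the 5 CCN genes (red) and of the genes averaging at least 1 FPKM in 7 lists of related genes (blue, 1 row per list), with GDF15 against CTRL on the left and TGF-β against CTRL on the right; each point is a gene, the black bar is the median and the dotted lines mark 2-fold. The median of the CCN genes lies at 1.24 and 2.39, and the medians of the lists lie between -0.21 and 0.30 on the left and between -0.19 and 0.55 on the right.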

How the data were processed

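Per the labels and the study's methods, total RNA of NIH3T3 cultures was pooled within each treatment (3 RNA samples each), stranded mRNA libraries were sequenced as 50-base single-end reads, and the authors calculated FPKM, which are the deposited values for protein coding genes with a reviewed UniProt entry. The submitters' processing notes name TopHat 1.3.2, Bowtie 0.12.9, Cufflinks 2.0.2 and mm10. The gene annotation is not given in the sources used here.

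No further normalization was applied. Changes are differences of log2(FPKM + 1), and over 2-fold means an absolute change above 1. The local spread of a gene is the median absolute deviation, scaled by 1.4826, of the changes of its nearest genes in mean expression. No test between treatments was possible with 1 library each. Of 15554 rows, 15497 were matched to GENCODE M21 (GRCm38), by symbol or by an older symbol in RefSeq.

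Depth was fitted on 2185 genes with a single coding transcript. FPKM times transcript length less 200 bases lay nearest to whole fragments, with 68.2%, 73.9% and 73.7% of low values within 0.1 of a whole number in CTRL, GDF15 and TGF-β (48.8%, 46.6% and 52.8% with the full length). Fragments of a CCN gene use its coding transcript with the longest coding sequence. GENCODE M21 lists 6 transcripts of *Wisp1* (2 coding), 3 of *Ctgf* (3 coding) and 2 of *Wisp2* (1 coding). The effect of this choice on the estimated fragments and their intervals was not tested. Ratio intervals are exact conditional (Clopper-Pearson) intervals. Intervals assume independent fragments and cover counting error only.

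The alternatives were pseudocounts of 0.5 and 0.1, no pseudocount, leaving out genes averaging under 1 FPKM, rescaling by the upper quartile or by the median ratio to CTRL, and removal of the trend with expression or with transcript length. Estimating fragments with the full transcript length was added after seeing the data. The depth fit, the spreads, the intervals and the 2-fold calls were tested on simulated data.

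Named are the CCN genes, the members of each list over 2-fold with either stimulus or with the highest mean FPKM, and the 3 genes nearest in pattern to each CCN gene, passing over genes not reported here. *Itgav*, *Itgb3*, *Notch1*, *Ankrd1*, *Amotl2*, *Smad7*, *Lef1*, *Itga2b*, *Itgb2*, *Axin2*, *Tcf7*, *Lgr5* and *Rnf43* were added after their values were seen, as were *Wisp3* and the neighbouring genes. The same holds for *Itgb1*, *Itga5*, *Itga6*, *Actg2*, *Cnn1*, *Lmod1* and *Nt5e*. The members and lists were chosen with earlier results of these data known. Scripts ran under Python 3.11.15, with scipy 1.17.1, numpy 2.4.6, Biopython 1.88, pandas 2.3.3 and matplotlib 3.10.9.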

Additional observations from a re-analysis of the deposited data

How the results depend on the processing

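No paired analysis was possible because RNA was pooled into 1 library per treatment, and no library could be left out. Of 120 changes of single CCN genes under the alternatives, 104 moved by less than the local spread, 16 by more and 0 changed direction. The pseudocount moved them most. With pseudocounts of 0.5 and 0.1 and without one, *Wisp1* changed by 2.05, 2.30 and 2.38 with GDF15 and by 3.07, 3.35 and 3.44 with TGF-β, and *Nov* by -1.65, -2.31 and -2.60 with TGF-β and by -0.69, -1.10 and -1.295 between GDF15 and TGF-β. At 0.1 and without a pseudocount, *Nov* changed by -1.22 and -1.305 with GDF15, and *Cyr61* by 1.64 and 1.67 with TGF-β.

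The number of CCN genes over 2-fold lower with GDF15 and between the stimuli was 1 at a pseudocount of 0.1 and without one, and 0 otherwise. Higher in TGF-β than in GDF15 were 2 genes in place of 1 under each smaller pseudocount, at a median ratio of 1, and after removal of either trend. The change by GDF15 rose with transcript length across 9193 genes (Spearman's rho 0.47). After removal of this trend *Wisp1*, the longest, changed by 1.75 with GDF15, and 1 gene of the Smad list passed 2-fold in place of 3. Without a pseudocount, genes over 2-fold with GDF15 were 2 in the YAP list and 3 in the Wnt list. With TGF-β they were 2 in the receptor list, 4 in the SRF list and 4 in the Wnt list. These counts take either direction. Lower were *Nt5e* in the YAP list with both stimuli, and *Itgb2*, *Cnn1* and *Rnf43* in the receptor, SRF and Wnt lists with TGF-β. All of these but *Itgb2* averaged under 1 FPKM. At a pseudocount of 0.1, genes over 2-fold were 2, 1 and 1 with GDF15 in the YAP, Wnt and module lists, and 2 with TGF-β in the Wnt list. Smaller shifts, from 2 to 3 genes, came in the SRF list with GDF15 (at 0.1 and without a pseudocount) and with TGF-β (at 0.5, at 0.1 and after removal of the length trend), and in the YAP list with TGF-β (without a pseudocount). The cause of these shifts was not tested, other than that a smaller pseudocount gives genes near 0 more weight. All 15 estimated numbers of fragments stayed within their counting intervals with the full transcript length.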

Other observations

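The genes next to the CCN genes on the chromosomes were looked at after the values of the CCN genes were seen, as the nearest gene of the table on each side in GRCm38. Of the 10 neighbours, 0 were over 2-fold with either stimulus on the log2(FPKM + 1) scale, where 0.289% of all genes were with GDF15 and 0.913% with TGF-β, so that a count of 0 does not set these genes apart. *Wisp1* lies 6.12 kb from *Ndrg1* (chr15:66929318-66969640), at 113 FPKM in CTRL, 110.2 with GDF15 and 117 with TGF-β. On its other side, *Tg* was between 0 and 0.0340. *Enpp1* (chr10:24637914-24712159), 39.2 kb from *Ctgf*, was at 3.48, 5.20 and 5.21, and *Moxd1* was listed at 0. *Ddah1* (chr3:145758675-145894277), 109 kb from *Cyr61*, was at 2.89, 3.46 and 5.07, and *Znhit6* at 4.95, 4.07 and 3.88. *Enpp2* (chr15:54838901-54952892), 84.9 kb from *Nov*, was at 1.97, 1.12 and 1.29, and *Mal2* was listed at 0. Beside *Wisp2*, *Ada* was at 4.28, 3.64 and 4.17 and *Rims4* was listed at 0.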
